A study of Arabidopsis thaliana with 10 samples.

Results

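The 43 genes described here are the nuclear genes of Arabidopsis thaliana that encode the light-harvesting antenna of photosystems I and II (LHCA and LHCB genes) and the nuclear-encoded subunits of the photosystems themselves (PSA and PSB genes). They were taken by locus code, by a rule of gene function that uses no measured value, and all 43 had a row of their own among the 33297 rows of the table. They comprise 6 genes of the photosystem I antenna, 15 of the photosystem II antenna, 12 of photosystem I subunits and 10 of photosystem II subunits. RNA came from whole seedlings at 7 days of age, raised on half-strength MS agar in long days and collected 12 hours after dawn. The mutants were hda9 (T-DNA line SALK_007123), hos15 (allele hos15-2, SALK_064435), pwr (SALK_071811C) and the hda9 hos15 double mutant, which combines the first and second of these insertions, and the wild type was Columbia-0 (Col). The labels name no transgene in any group. Each mutation was studied as 1 allele. HDA9 is a histone deacetylase, and PWR and HOS15 are proteins that the design text reports to interact with it. Sequencing covered 10 libraries, 2 for each genotype, but the table holds 1 value per gene and genotype in FPKM (fragments scaled to transcript length and to the number of mapped fragments), so no replicate error can be given, no test between genotypes was possible, and every difference below is a difference between single values. The read depth behind these values is unknown.

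Light is captured by chlorophyll-binding antenna proteins and passed to the reaction centres, where photosystem II takes electrons from water and photosystem I hands them to ferredoxin. The antenna proteins and the peripheral subunits are encoded in the nucleus, made in the cytosol and imported into the chloroplast, while the reaction-centre proteins are encoded in the chloroplast. In green seedlings the nuclear genes are among the most strongly transcribed, and they are known to respond to light, to the circadian clock and to signals from the chloroplast. Histone acetylation has been studied at several of them in Arabidopsis as a correlate of their light response. All 130 chloroplast rows of the table are listed at 0 in every genotype, so the chloroplast-encoded part of both photosystems is not described here.

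Several features of the whole table touch every value. FPKM summed to between 1142810 (hos15) and 1326090 (pwr) in the mutants and to 955700 in Col, and a single row, AT2G01021, held 13.9% of the sum in pwr against 4.13% in Col, a difference whose part in the results was not tested. HDA9 stood at 1.70 FPKM in hda9 and 1.76 in the double mutant against 7.79 in Col. PWR stood at 2.18 FPKM in pwr against 8.38 in Col. HOS15 stood at 2.16 FPKM in hos15 and 1.89 in the double mutant against 16.2 in Col, and was also low in hda9 (4.37) and pwr (3.17), which carry no labelled mutation in it. Markers of green tissue and of root were present in all columns with the Rubisco activase gene RCA between 2529 and 3012 FPKM and the root-expressed PYK10 between 927 and 1441. In bulk seedling RNA, fewer cells of a type and less RNA per cell cannot be told apart. Differences are given on log2(FPKM + 1), over the 18912 rows with at least 1 FPKM in at least 2 genotypes, and a gene is called higher or lower at a difference of 2-fold. All 43 genes passed this filter.

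Most of the 43 genes stood somewhat above Col in the mutants, by less than 2-fold. In the deposited values 32 were above Col in all 4 mutant columns, 5 were below it in all 4 and 6 were mixed. The median log2 fold change was 0.39 for pwr, 0.28 for hda9, 0.23 for hos15 and 0.28 for the double mutant, and over all 18912 rows it was -0.086, -0.039, -0.015 and -0.069 in that order. By the 2-fold rule 0 of 43 were called in hda9, where 6.48% of all rows were called (1.99% higher and 4.49% lower). In the double mutant 0 of 43 were called, against 5.39% of all rows (1.49% higher and 3.91% lower). In hos15 1 of 43 was called, on the lower side, against 3.71% of all rows (1.23% higher and 2.48% lower). In pwr 3 of 43 were called, all higher, against 9.48% of all rows (1.94% higher and 7.55% lower). The called genes were LHCB2.3 in hos15 and the LHCB1 genes CAB1, LHB1B1 and LHB1B2 in pwr. All 4 comparisons use the single Col column, so they are not independent.

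The size and sign of this general difference depended on how the columns were scaled, whereas a ratio between 2 genes of the same column is not changed when the column is multiplied by a factor. The FPKM sums include AT2G01021, which held 13.9% of the sum in pwr and 7.05% in hos15, against 4.13% in Col. Sums without that row were not tried. Scaled to equal FPKM sums, the median was -0.079 for pwr, 0.016 for hda9, -0.032 for hos15 and -0.020 for the double mutant. That scaling shifted the median of all rows by -0.40, -0.23, -0.22 and -0.26 in the same order, so relative to all rows the 43 genes stood at 0.40, 0.29, 0.21 and 0.30. Quantile normalization, which gives equal ranks in each column equal values, shifted the median of all rows by up to 0.14 (pwr) and put the 43 genes at -0.12 (pwr), -0.08 (hda9), -0.08 (hos15) and -0.13 (double mutant) relative to all rows. In each column 34 or 35 of the 43 genes were among the 100 highest rows. A difference shared by the highest rows is largely removed by that step. Its medians therefore cannot show whether the 43 genes stood above Col together. As deposited, the 77 other rows with a mean of at least 1000 FPKM had medians of 0.57 (pwr), 0.38 (hda9), 0.30 (hos15) and 0.47 (double mutant). As deposited, the median excess of the 43 genes over Col was no larger than that of these rows. The 77 rows were picked by their mean over all columns, mutants included, which favours rows higher in the mutants. The 43 genes were not picked by level, and 8 of them have a mean under 1000 FPKM, so the sets are unlike. The sections below turn on how the 43 genes differed from each other. Under the deposited values and all 3 scalings, 7 genes lay above Col in all 4 mutants (CAB3, LHB1B1, LHCB4.1, LHCB6, PSAD1, PSAG and PSAH1) and 2 below it (LHCB2.3 and PSAN).

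**Figure D1:**
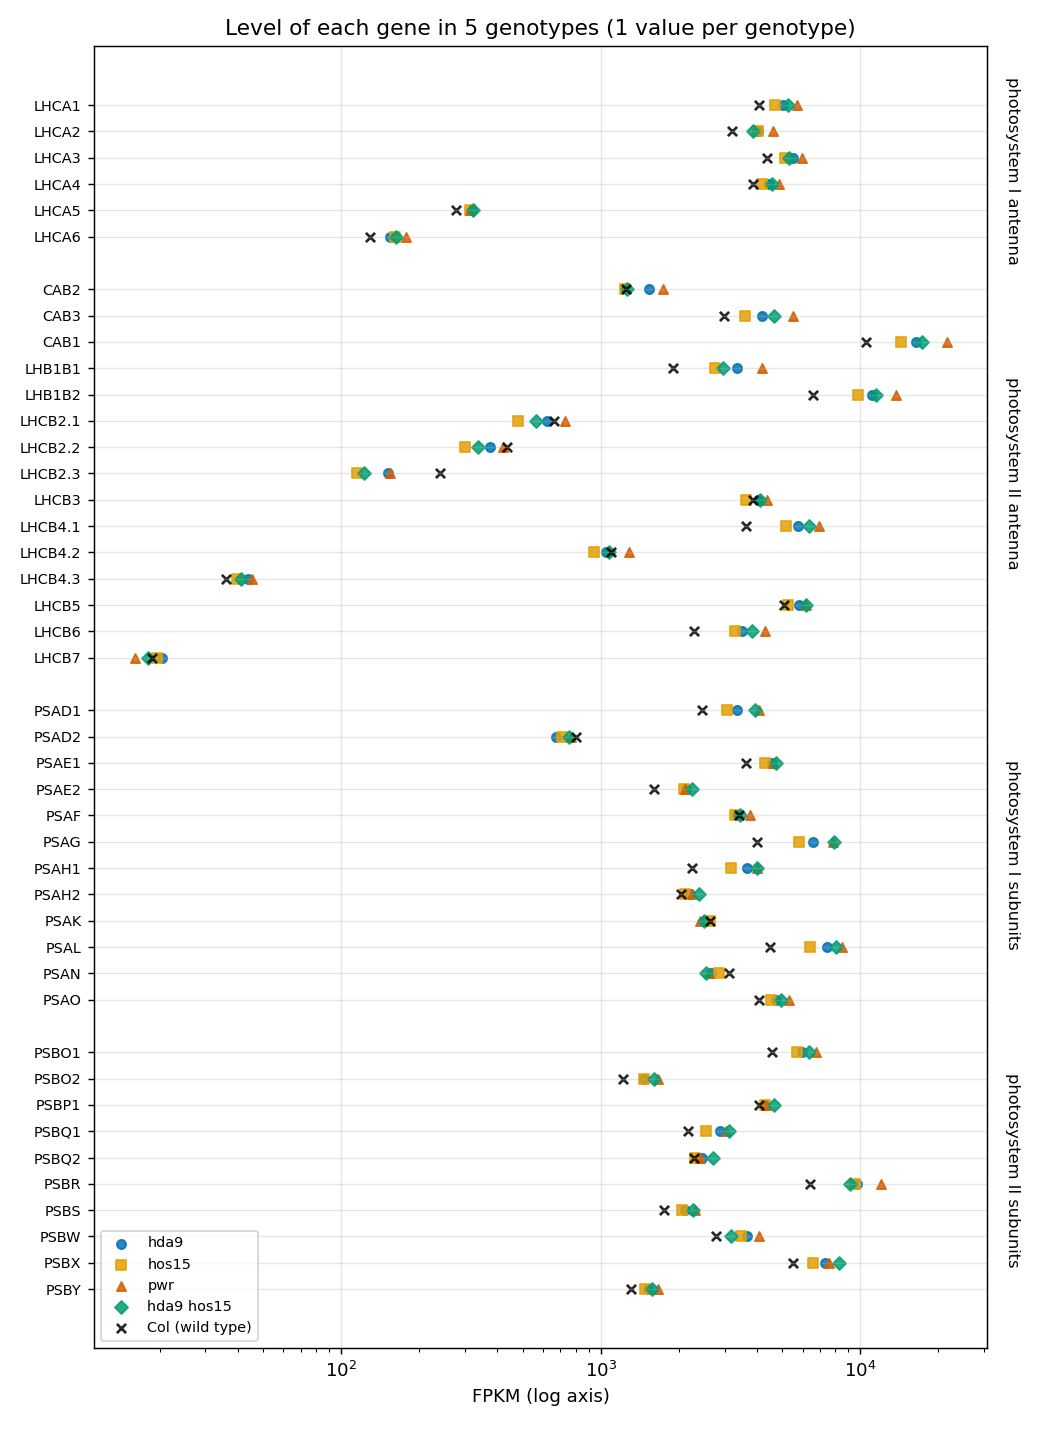
Level of each of the 43 genes in FPKM (log axis), 1 symbol per genotype, grouped by photosystem and role. Most Col crosses lie at the low end of their row, while LHCB2.2, LHCB2.3, PSAD2, PSAK and PSAN have Col at the high end.

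The photosystem I antenna was the most uniform group. LHCA1 (AT3G54890) to LHCA4 (AT3G47470), the 4 proteins that form the antenna belt on one side of photosystem I, were all strongly expressed. LHCA1 stood at 5026 FPKM (hda9), 4699 (hos15), 5682 (pwr) and 5285 (double mutant), against 4087 in Col. LHCA3 (AT1G61520), the highest of the group, stood at 5959 FPKM in pwr, 5299.9 in the double mutant, 5489 in hda9 and 5128 in hos15, against 4374 in Col. LHCA2 (AT3G61470) stood at 4039.5 FPKM (hda9), 4031 (hos15), 4619 (pwr) and 3868 (double mutant), against 3210.3 in Col. LHCA4 stood at 4882 FPKM in pwr, 4570.4 in the double mutant, 4449 in hda9 and 4167 in hos15, against 3876 in Col. The 4 genes lay above Col in every mutant as deposited, with log2 fold changes from 0.10 (LHCA4 in hos15) to 0.52 (LHCA2 in pwr). LHCA5 (AT1G45474) and LHCA6 (AT1G19150), rarer proteins that in Arabidopsis link photosystem I to the NADH dehydrogenase-like complex, were far lower. LHCA5 stood at 319.5 FPKM (hda9), 313 (hos15), 314 (pwr) and 323 (double mutant), against 277 in Col. LHCA6 stood at 179 FPKM in pwr, 162 in the double mutant, 155 in hda9 and 161 in hos15, against 129.6 in Col. Their mutant values also lay above Col, so that all 6 genes were above Col in all 4 mutants as deposited. After quantile normalization the median of the 6 was -0.15 in the double mutant and -0.11 in each of the 3 single mutants.

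LHCB1 proteins, with LHCB2, make up the trimers of the major photosystem II antenna, the most abundant membrane protein complex of the leaf. The 5 LHCB1 genes include the highest transcript of the 43. That transcript, CAB1 (LHCB1.3, AT1G29930), stood at 16382 FPKM (hda9), 14298 (hos15), 21559.6 (pwr) and 17310.3 (double mutant), against 10515 in Col. LHB1B2 (LHCB1.5, AT2G34420), the second highest, stood at 13741 FPKM in pwr, 11466 in the double mutant, 11088 in hda9 and 9842 in hos15, against 6605 in Col. LHB1B1 (LHCB1.4, AT2G34430) stood at 3351 FPKM (hda9), 2753 (hos15), 4182 (pwr) and 2972 (double mutant), against 1907 in Col. In these 3 genes every mutant value lay above Col as deposited and the pwr value was the highest, with log2 fold changes in pwr of 1.04, 1.06 and 1.13. CAB1 holds the same rank in every column, so quantile normalization set its difference to 0 in each mutant, and that of LHB1B2 to 0 in pwr. CAB3 (LHCB1.2, AT1G29910) also had its highest value in pwr and every mutant value above Col, at 5489 FPKM in pwr, 4654 in the double mutant, 4198 in hda9 and 3601 in hos15, against 2985 in Col, with 0.88 in pwr. CAB2 (LHCB1.1, AT1G29920), the lowest of the family, lay below Col in hos15, at 1535 FPKM (hda9), 1237 (hos15), 1745 (pwr) and 1267 (double mutant), against 1253 in Col. In hos15 and the double mutant CAB2 differed from Col by -0.02 and 0.02 only. Summed over the family, LHCB1 stood at 46716 FPKM in pwr, 37669 in the double mutant, 36554 in hda9 and 31730.4 in hos15, against 23265 in Col, which is 2.01, 1.62, 1.57 and 1.36 times the Col sum. The sum is given because reads can be split between these copies: CAB1, CAB2 and CAB3 are adjacent genes on chromosome 1 whose coding sequences are 95.6% to 96.4% identical, and LHB1B1 and LHB1B2 are adjacent on chromosome 2 and 92.5% identical. With equal FPKM sums CAB1, LHB1B1 and LHB1B2 had 0.56, 0.66 and 0.58 in pwr, no longer 2-fold.

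LHCB2, the partner of LHCB1 in the trimers and the form whose phosphorylation moves antenna to photosystem I, stood on the other side of Col, except LHCB2.1 (AT2G05100) in pwr. LHCB2.3 (AT3G27690) stood at 155 FPKM in pwr, 123 in the double mutant, 152 in hda9 and 115 in hos15, against 240.3 in Col. All its mutant values lay below Col, with log2 fold changes of -1.06 in hos15, -0.97 in the double mutant, -0.66 in hda9 and -0.63 in pwr, and it was the only one of the 43 called lower in any mutant. It remained below Col in all 4 under every scaling (-0.87 to -1.29 after quantile normalization). LHCB2.2 (AT2G05070) stood at 373 FPKM (hda9), 300.2 (hos15), 420.3 (pwr) and 336 (double mutant), against 436 in Col. LHCB2.1 stood at 731 FPKM in pwr, 562 in the double mutant, 623 in hda9 and 479 in hos15, against 662 in Col. Both were lowest in hos15; LHCB2.1 lay above Col in pwr (0.14), and median-ratio scaling put LHCB2.2 in pwr, at -0.05 as deposited, at 0.05. LHCB2.1 and LHCB2.2 are neighbours on chromosome 2 that share 22.7% and 28.2% of their 50-nt windows, while LHCB2.3, on chromosome 3, shares none with any other transcript. The ratio of the LHCB1 sum to the LHCB2 sum, which multiplying a column by a factor cannot change, was 36.9 in the double mutant, 35.8 in pwr, 35.5 in hos15 and 31.8 in hda9, against 17.4 in Col. LHCB3 (AT5G54270), a further trimer subunit, stood at 4046 FPKM (hda9), 3620.3 (hos15), 4392 (pwr) and 4101 (double mutant), against 3865 in Col, with log2 fold changes between -0.09 and 0.18.

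The monomeric antenna proteins, which connect the trimers to the photosystem II core, differed among themselves. LHCB4.1 (CP29, AT5G01530) stood at 6943 FPKM in pwr, 6345 in the double mutant, 5761 in hda9 and 5196 in hos15, against 3621 in Col. Its copy LHCB4.2 (AT3G08940) stood at 1053 FPKM (hda9), 939 (hos15), 1290.1 (pwr) and 1081 (double mutant), against 1091 in Col. All mutant values of LHCB4.1 lay above Col, whereas LHCB4.2 lay above it only in pwr as deposited, and also in hda9 (0.00) and the double mutant (0.05) with median-ratio scaling. LHCB4.3 (AT2G40100), a rarer copy, stood at 45.2 FPKM in pwr, 41.3 in the double mutant, 43.9 in hda9 and 39.7 in hos15, against 35.9 in Col. LHCB6 (CP24, AT1G15820) stood at 3507 FPKM (hda9), 3304 (hos15), 4303 (pwr) and 3811 (double mutant), against 2298 in Col, with log2 fold changes from 0.52 to 0.90. LHCB5 (CP26, AT4G10340) stood at 6205 FPKM in pwr, 6199 in the double mutant, 5829 in hda9 and 5262 in hos15, against 5105 in Col, with log2 fold changes from 0.04 to 0.28, and was below Col in all 4 mutants after quantile normalization. LHCB7 (AT1G76570), a rare member of the family with the lowest level of the 43, stood at 20.4 FPKM (hda9), 19.5 (hos15), 16.0 (pwr) and 18.1 (double mutant), against 18.7 in Col. It was the only gene of the antenna with its lowest value in pwr.

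The photosystem I subunits ranged from genes well above Col, over genes slightly above it, to genes at or below it. PSAG (AT1G55670), which helps hold the antenna belt at the core, stood at 7824 FPKM in pwr, 7945 in the double mutant, 6589.9 in hda9 and 5823 in hos15, against 4005 in Col. PSAL (AT4G12800), part of the site where mobile antenna docks, stood at 7451 FPKM (hda9), 6430.0 (hos15), 8485 (pwr) and 8090.4 (double mutant), against 4502 in Col. PSAH1 (AT3G16140), of the same site, stood at 4013 FPKM in pwr, 4000.3 in the double mutant, 3665 in hda9 and 3188 in hos15, against 2250.5 in Col. These 3 genes had log2 fold changes from 0.50 to 0.99 over the 4 mutants, with the smallest value of each in hos15, where PSAL was level with Col (0.00) after quantile normalization. On the other side, PSAN (AT5G64040), a lumenal subunit near the plastocyanin docking site, stood at 2663 FPKM (hda9), 2853 (hos15), 2623 (pwr) and 2535 (double mutant), against 3108 in Col. PSAK (AT1G30380), which is related to PSAG and binds the other end of the belt, stood at 2422 FPKM in pwr, 2496 in the double mutant, 2513 in hda9 and 2636 in hos15, against 2641 in Col. PSAN and PSAK had their highest values in Col, although PSAK lay within 0.12 of it in all 4 mutants and crossed to above Col in hos15 with median-ratio scaling (0.01). PSAF (AT1G31330), the plastocyanin docking subunit itself, stood at 3357 FPKM (hda9), 3295 (hos15), 3766 (pwr) and 3453 (double mutant), against 3396 in Col, with log2 fold changes between -0.04 and 0.15.

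The remaining photosystem I subunits are the stromal ones around the ferredoxin docking site, PSAH2 and the small PSAO (AT1G08380). PSAD1 (AT4G02770) stood at 4075 FPKM in pwr, 3948 in the double mutant, 3349 in hda9 and 3057 in hos15, against 2448 in Col. Its copy PSAD2 (AT1G03130) stood at 672 FPKM (hda9), 709 (hos15), 769.5 (pwr) and 757 (double mutant), against 801 in Col. PSAD1 lay above Col and PSAD2 below it in all 4 mutants as deposited, with PSAD2 lowest in hda9 (-0.25). Median-ratio scaling put PSAD2 at 0.04 in pwr. The PSAE copies, in contrast, both lay above Col as deposited. PSAE1 (AT4G28750) stood at 4631 FPKM in pwr, 4719 in the double mutant, 4573 in hda9 and 4290.3 in hos15, against 3641 in Col. PSAE2 (AT2G20260) stood at 2124 FPKM (hda9), 2099 (hos15), 2110.1 (pwr) and 2242 (double mutant), against 1611 in Col. PSAH2 (AT1G52230), the second copy of PSAH, stood at 2252 FPKM in pwr, 2402 in the double mutant, 2216 in hda9 and 2107 in hos15, against 2043 in Col. PSAO, another subunit of the antenna docking site, stood at 4719.6 FPKM (hda9), 4543 (hos15), 5294 (pwr) and 4959 (double mutant), against 4063 in Col. For PSAE1, PSAE2, PSAH2 and PSAO the log2 fold changes ran from 0.04 to 0.48.

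The photosystem II subunits all lay above Col in all 4 mutants as deposited, with medians of 0.46 (pwr), 0.33 (hda9), 0.24 (hos15) and 0.38 (double mutant). PSBR (AT1G79040), a small subunit needed for stable binding of the oxygen-evolving proteins, had the largest difference of the group in each single mutant. It stood at 12062 FPKM in pwr, 9120.1 in the double mutant, 9708 in hda9 and 9518 in hos15, against 6380.2 in Col, with 0.92 in pwr. PSBX (AT2G06520), a small membrane subunit, was highest in the double mutant, at 7305 FPKM (hda9), 6559.9 (hos15), 7552 (pwr) and 8286 (double mutant), against 5491 in Col. PSBO1 (AT5G66570), the manganese-stabilising protein of the oxygen-evolving complex, stood at 6758 FPKM in pwr, 6355 in the double mutant, 5977 in hda9 and 5719.7 in hos15, against 4563 in Col. Its copy PSBO2 (AT3G50820) stood at 1473 FPKM (hda9), 1466 (hos15), 1668 (pwr) and 1604 (double mutant), against 1219 in Col. Of the genes of the other oxygen-evolving proteins, PSBP1 (AT1G06680) and PSBQ2 (AT4G05180) lay closer to Col than PSBQ1 (AT4G21280). PSBP1 stood at 4345 FPKM in pwr, 4639 in the double mutant, 4279 in hda9 and 4287 in hos15, against 4083 in Col. PSBQ1 stood at 2869.8 FPKM (hda9), 2544 (hos15), 3028 (pwr) and 3128 (double mutant), against 2174 in Col. PSBQ2 stood at 2422 FPKM in pwr, 2703 in the double mutant, 2449 in hda9 and 2314 in hos15, against 2279 in Col. PSBS (AT1G44575), the sensor of thermal dissipation of excess light, stood at 2115 FPKM (hda9), 2062 (hos15), 2306 (pwr) and 2275 (double mutant), against 1756 in Col. PSBW (AT2G30570), a small membrane subunit, stood at 4061 FPKM in pwr, 3184 in the double mutant, 3665 in hda9 and 3480.0 in hos15, against 2769.9 in Col. PSBY (AT1G67740), another, stood at 1522 FPKM (hda9), 1481 (hos15), 1657 (pwr) and 1578 (double mutant), against 1312 in Col. After quantile normalization the medians of the 10 genes were -0.04 (pwr), -0.05 (hda9), -0.07 (hos15) and -0.09 (double mutant), so the sign of the median changed with this step, which can remove a difference that abundant genes share.

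**Figure D2:**
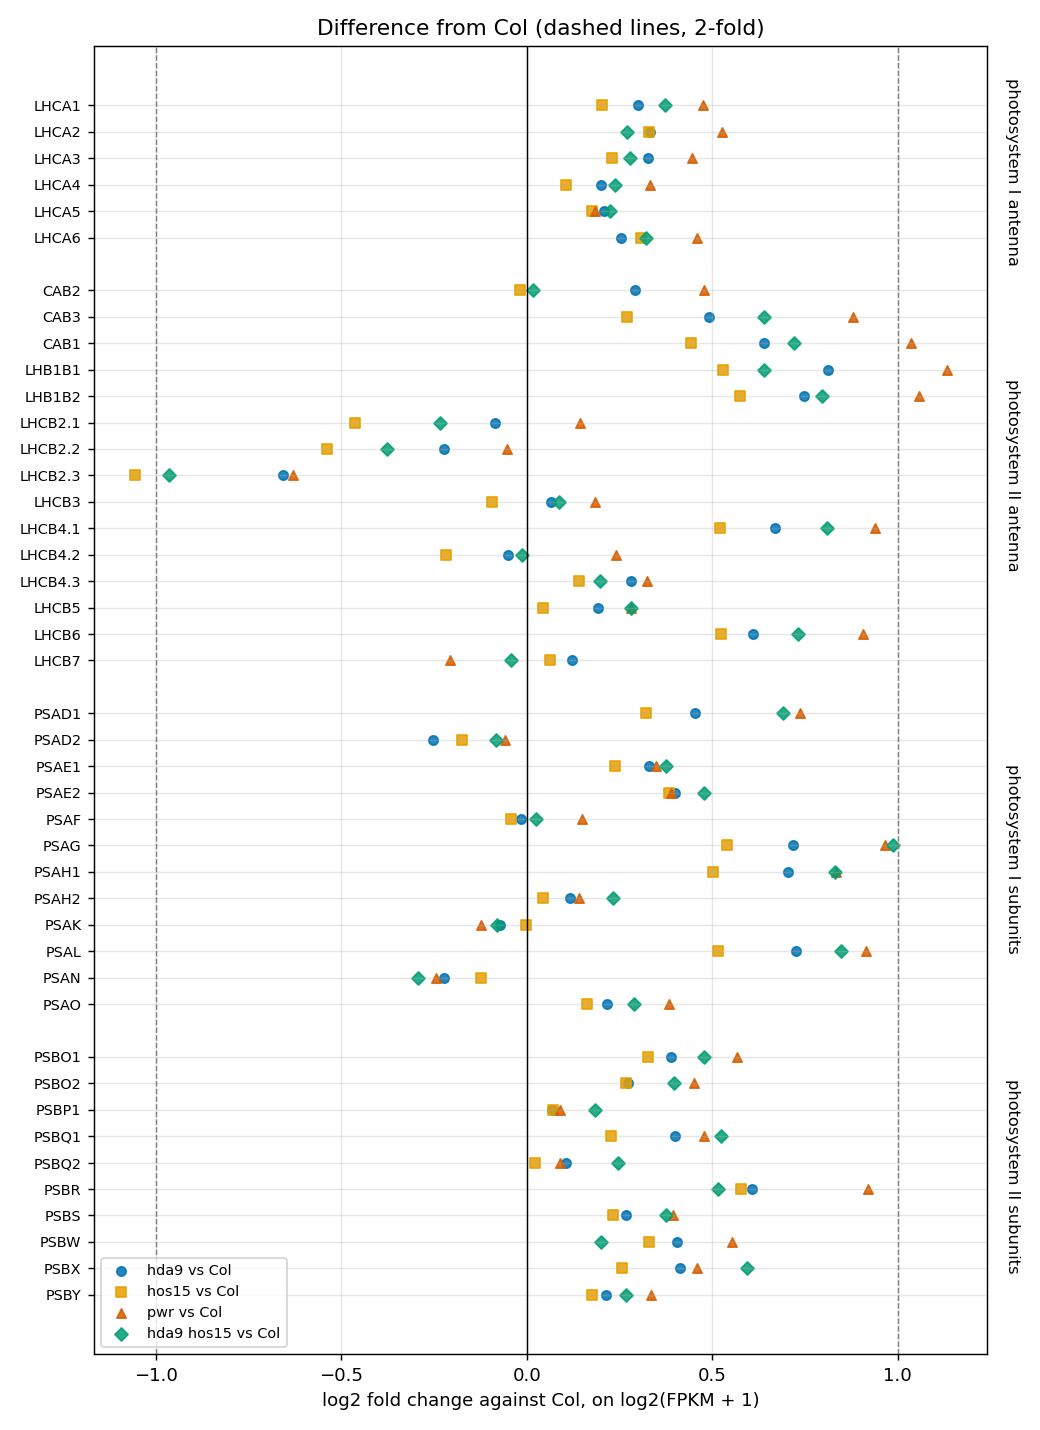
Log2 fold change of each of the 43 genes against Col, on log2(FPKM + 1), 1 symbol per mutant, with dashed lines at 2-fold. The pwr triangles lie past the upper line for CAB1, LHB1B1 and LHB1B2, and the hos15 square lies past the lower line for LHCB2.3.

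Ratios between copies of the same subunit differed from Col in some pairs and hardly in others, whatever factor a column is multiplied by. PSAD1 was 4.98 times PSAD2 in hda9, 4.31 in hos15, 5.22 in the double mutant and 5.30 in pwr, against 3.05 in Col. LHCB4.1 was 5.47 times LHCB4.2 in hda9, 5.54 in hos15, 5.87 in the double mutant and 5.38 in pwr, against 3.32 in Col. PSAH1 was 1.65 times PSAH2 in hda9, 1.51 in hos15, 1.67 in the double mutant and 1.78 in pwr, against 1.10 in Col. In these 3 pairs all 4 mutant ratios lay above the Col ratio, and the mutants lay closer to each other than to Col. The coding sequences within these pairs are 88.0%, 81.9% and 87.0% identical, and none of the 6 transcripts shares a 50-nt window with another gene, although PSAD2 overlaps a gene on its own strand and LHCB4.2, PSAH1 and PSAH2 overlap genes on the other strand. After quantile normalization, which is no constant factor, PSAD1, LHCB4.1 and PSAH1 lay above Col and PSAD2, LHCB4.2 and PSAH2 below it in all 4 mutants. As deposited PSAH2 lay above Col in all 4 mutants (0.04 to 0.23) and LHCB4.2 in pwr (0.24), so these signs changed with that step. PSAE1 was 2.15 times PSAE2 in hda9, 2.04 in hos15, 2.11 in the double mutant and 2.19 in pwr, against 2.26 in Col. PSBO1 was 4.06 times PSBO2 in hda9, 3.90 in hos15, 3.96 in the double mutant and 4.05 in pwr, against 3.74 in Col. On the log2 scale the PSAE and PSBO ratios lay between -0.15 and 0.12 of Col. PSBQ1 was 1.17 times PSBQ2 in hda9, 1.10 in hos15, 1.16 in the double mutant and 1.25 in pwr, against 0.95 in Col. PSAG to PSAK, a pair of related subunits chosen after their values were seen, stood at 3.23 in pwr, 3.18 in the double mutant, 2.62 in hda9 and 2.21 in hos15, against 1.52 in Col. After adjustment for transcript sequence, the difference in log2 fold change was 0.85 to 1.38 for PSAD1 over PSAD2, larger than the 0.50 to 0.79 as deposited. For LHCB4.1 over LHCB4.2 it was 0.72 to 0.84, against 0.70 to 0.82 as deposited. For PSAH1 over PSAH2 it was 0.50 to 0.67, against 0.46 to 0.69 as deposited. For PSBQ1 over PSBQ2 it was only 0.03 to 0.07, against 0.20 to 0.39 as deposited. For PSAG over PSAK it was 0.23 to 0.51, against 0.54 to 1.09 as deposited.

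**Figure D3:**
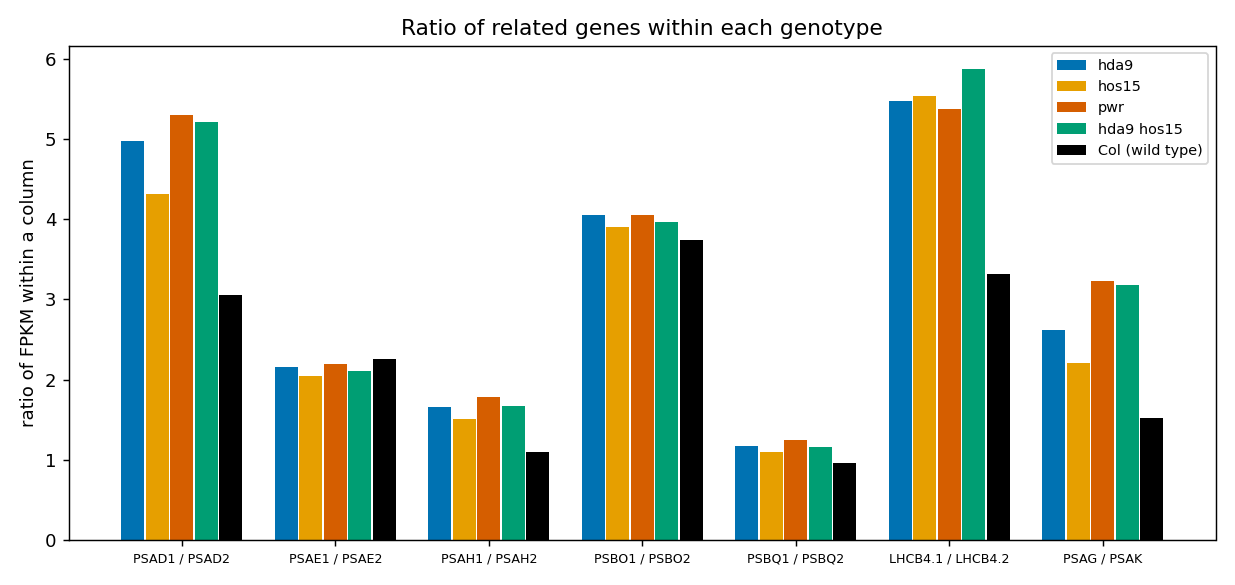
Ratio of FPKM between related genes within the same column, as bars for hda9, hos15, pwr, the double mutant and Col. The Col bar lies clearly below the mutant bars for PSAD, PSAH, LHCB4 and PSAG over PSAK, and close to them for PSAE (2.26 in Col) and PSBO (3.74 in Col).

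No gene of the 43 was called in any of the 6 comparisons between mutants, where few rows of any kind were. The share of all rows called was 1.85% for the double mutant against hda9, 1.29% against hos15 and 1.2% against pwr, 0.74% for hda9 against hos15, 0.925% for hda9 against pwr and 1.2% for hos15 against pwr. Beside such low shares a count of 0 says nothing particular about these genes. As deposited, of the 43 genes, 28 were highest in pwr, 9 in the double mutant, 5 in Col, 1 in hda9 and 0 in hos15. Col held the lowest value of 32 genes and hos15 that of 7. In hda9 38 of 43 genes were above hos15, with a median of 0.09, and in hos15 40 were below pwr, with a median of -0.23. These counts use the deposited scale. With equal FPKM sums the median of hda9 against pwr was 0.036, against -0.17 as deposited, that of the double mutant against pwr 0.077, against -0.09, and that of hos15 against pwr -0.014, with 25 genes below pwr. The pwr sum used there includes AT2G01021, at 13.9% of it. After quantile normalization 23 genes were below pwr in hos15, and 21 were above and 15 below hos15 in hda9.

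The double mutant lay above both single mutants for 30 genes, between them for 7 and below both for 6 as deposited. After quantile normalization it was above hda9 for only 13 genes and below it for 17, and above hos15 for 21 and below it for 14, against 30 above hda9 and 37 above hos15 as deposited. Its median log2 fold change was 0.07 against hda9 (range -0.31 to 0.27) and 0.14 against hos15 (-0.17 to 0.45), where all rows had medians of 0.00 and -0.04. PSAG was the largest of the 43 in both comparisons, at 0.27 and 0.45. LHCB2.3 was the lowest against hda9, at -0.31, with the double mutant close to hos15 at 123 and 115 FPKM. LHCA2, LHCB7, PSAK, PSAN, PSBR and PSBW, in contrast, lay below both single mutants. Against pwr the double mutant had a median of -0.09, with LHB1B1 the lowest at -0.49.

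The 43 transcripts share features that the choice of genes did not use. They are short, with a median of 1204 nt against 1714 nt over 18079 protein-coding genes compared, and have a median of 3 exons against 4. Their GC content had a median of 44.0% against 41.3%, and their purine content one of 49.5% (43.6% to 53.3%) against 50.6%. A smooth trend of log2 fold change on purine content, length and GC content, but not exon number, was subtracted over all 18079 genes. Over those genes the trend held 42.1% (pwr), 34.8% (hda9), 28.9% (hos15) and 34.4% (double mutant) of the variance against Col. Between mutants it held from 2.80% (double mutant against hda9) to 31.0% (hos15 against pwr). With the trend subtracted, the 43 genes had medians of 0.049 (pwr), -0.056 (hda9), -0.047 (hos15) and 0.020 (double mutant), and 14 were above and 16 below Col in all 4 mutants. LHCB1 then had medians of 0.44 (pwr), 0.21 (hda9), 0.12 (hos15) and 0.26 (double mutant), and LHCB2 medians of -0.63, -0.69, -0.88 and -0.84 in that order. The largest adjusted value was that of PSAD1 in pwr, at 1.22. Across the 43 genes the log2 fold change went with GC content (Pearson's r 0.51 for pwr, 0.44 for hda9, 0.34 for hos15 and 0.38 for the double mutant) and with the log2 level in Col (0.47, 0.40, 0.40 and 0.47), which enters both measures; this describes 43 genes that share the same columns. In the annotation used here 17 of the 43 overlap another gene, 16 of them on the opposite strand, CAB1, LHB1B2, LHCB2.3 and LHCB6 among these. The library kit was stranded, but no source states whether counting used the strand, so reads of such partners may be included.

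Other genes of photosynthesis are given from lists, as deposited and after the sequence adjustment, with no test of their difference from the antenna genes. Of 13 measured genes of chlorophyll synthesis none was called higher and 1, HEMA1, lower in each mutant. HEMA1, which encodes the first committed enzyme of tetrapyrrole synthesis in Arabidopsis, stood at 13.7 FPKM in pwr, 17.0 in the double mutant, 18.3 in hda9 and 20.7 in hos15, against 49.9 in Col, with log2 fold changes from -1.23 to -1.79, and from -1.08 to -1.41 after sequence adjustment. The list had medians of -0.28 (pwr), -0.38 (hda9), -0.32 (hos15) and -0.26 (double mutant), and adjusted ones of -0.27, -0.45, -0.17 and -0.12 in that order. Of 10 genes for import, assembly and regulation of the antenna none was called higher, and 3 were called lower in pwr and 2 in the double mutant. The list had medians of -0.59 (pwr), -0.40 (hda9), -0.27 (hos15) and -0.44 (double mutant), and adjusted ones of -0.17, -0.14, -0.11 and -0.069, where the photosystem II antenna had 0.11, -0.044, -0.11 and 0.070. ZEP, the zeaxanthin epoxidase, stood at 40.9 FPKM (hda9), 42.7 (hos15), 34.1 (pwr) and 31.1 (double mutant), against 77.7 in Col. NPQ1, the violaxanthin de-epoxidase, stood at 42.5 FPKM in pwr, 47.8 in the double mutant, 55.2 in hda9 and 62.7 in hos15, against 99.4 in Col. CPSRP54, which delivers antenna proteins to the thylakoid, stood at 60.8 FPKM (hda9), 68.8 (hos15), 48.1 (pwr) and 62.7 (double mutant), against 107 in Col. In all 3 every mutant value lay below Col as deposited. After sequence adjustment none was 2-fold apart, with ZEP at -0.41 to -0.83, NPQ1 at -0.22 to -0.45 and CPSRP54 between -0.11 and 0.01, without a common direction.

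Among 11 regulators of photosynthesis genes none was called higher, and 3 were called lower in pwr and 2 in each of the other mutants. These were SIG2 and SIG5 in all 4 mutants and SIG6 in pwr, which encode sigma factors of the chloroplast RNA polymerase. SIG2 stood at 20.4 FPKM in pwr, 27.4 in the double mutant, 25.8 in hda9 and 32.4 in hos15, against 65.8 in Col. SIG5 stood at 2.96 FPKM (hda9), 2.78 (hos15), 1.75 (pwr) and 2.02 (double mutant), against 7.08 in Col. SIG6 stood at 27.0 FPKM in pwr, 32.1 in the double mutant, 32.5 in hda9 and 37.9 in hos15, against 55.7 in Col. After sequence adjustment 1 call was left, SIG2 in pwr, while SIG2 was at -0.67 to -0.86 in the other mutants, SIG5 at -0.47 to -0.88 and SIG6 in pwr at -0.64. The list had medians of -0.53 (pwr), -0.50 (hda9), -0.13 (hos15) and -0.26 (double mutant), and adjusted ones of -0.35, -0.39, -0.080 and -0.14 in that order. The nuclear activator GLK1, known to act on antenna genes, lay above Col in every mutant as deposited, at 78.4 FPKM (hda9), 74.2 (hos15), 94.9 (pwr) and 96.4 (double mutant), against 54.9 in Col, without reaching 2-fold. None of 12 electron transport genes was called in any mutant. There the ferredoxin genes lay on opposite sides of Col as deposited. FD1 stood at 1256 FPKM in pwr, 1317 in the double mutant, 1179 in hda9 and 1002 in hos15, against 718 in Col. FD2, the major leaf form, stood at 1280.1 FPKM (hda9), 1344 (hos15), 1419 (pwr) and 1639 (double mutant), against 1676 in Col. After sequence adjustment FD1 was at 0.01 to 0.23 and FD2 at -0.71 to -0.35. The list had medians of -0.14 (pwr), -0.02 (hda9), 0.09 (hos15) and -0.02 (double mutant), and adjusted ones of -0.095, -0.12, 0.01 and -0.038. None of 6 light-stress relatives of the antenna was called, with ELIP1 the lowest in the double mutant, where it stood at 8.07 FPKM, against 13.6 in Col. After sequence adjustment ELIP1 in the double mutant was at -1.01. These counts stand beside the shares of all rows called lower given above, and the lists were chosen with earlier results of these data known.

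Lists of other tissues and of clock phase are given beside the antenna values, and their part in the results was not tested. None of 7 genes of stroma enzymes was called, FBA1 being the highest (751 FPKM in the double mutant, 477 in Col) and PRK the lowest in pwr, with medians between -0.01 (hos15) and 0.16 (pwr), and their sum ran from 10711 to 11454 FPKM in the mutants against 11126 in Col. The sum of the 43 genes was 16.3 (pwr), 15.7 (double mutant), 15.2 (hda9) and 14.0 (hos15) times that of the stroma genes, against 11.1 times in Col. The stroma medians after sequence adjustment were 0.092 (pwr), -0.046 (hda9), -0.079 (hos15) and -0.040 (double mutant). They lay near those of the 43 genes, at 0.049, -0.056, -0.047 and 0.020 in that order. Of 10 root genes 1 was called, the iron transporter gene IRT1 in hda9 (144 FPKM, against 51.8 in Col), and the summed level of the list, most of it PYK10, was 1156 to 1296 FPKM in the mutants and 1612 in Col, while its median log2 fold change was 0.10 to 0.40 as deposited. After sequence adjustment the root medians were -0.14 (pwr), 0.08 (hda9), -0.15 (hos15) and -0.07 (double mutant). Of the 8 clock genes CCA1, LHY and PRR9, which peak in the morning, stood below 1 FPKM in every genotype, and PRR7 stood at 13.7 FPKM in pwr, 15.3 in the double mutant, 17.8 in hda9 and 22.9 in hos15, against 43.5 in Col, called lower in all but hos15 as deposited and in none after sequence adjustment (-0.52 to -0.90). The 5 clock genes compared had medians of 0.00 (pwr), 0.02 (hda9), 0.10 (hos15) and -0.20 (double mutant) as deposited. GI (0.18 to 0.29) and ELF4 (0.10 to 0.27) lay above Col in all 4 mutants. PRR5 (-0.43 to -0.71) lay below it, and TOC1 ran from -0.20 to 0.10.

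**Figure D4:**
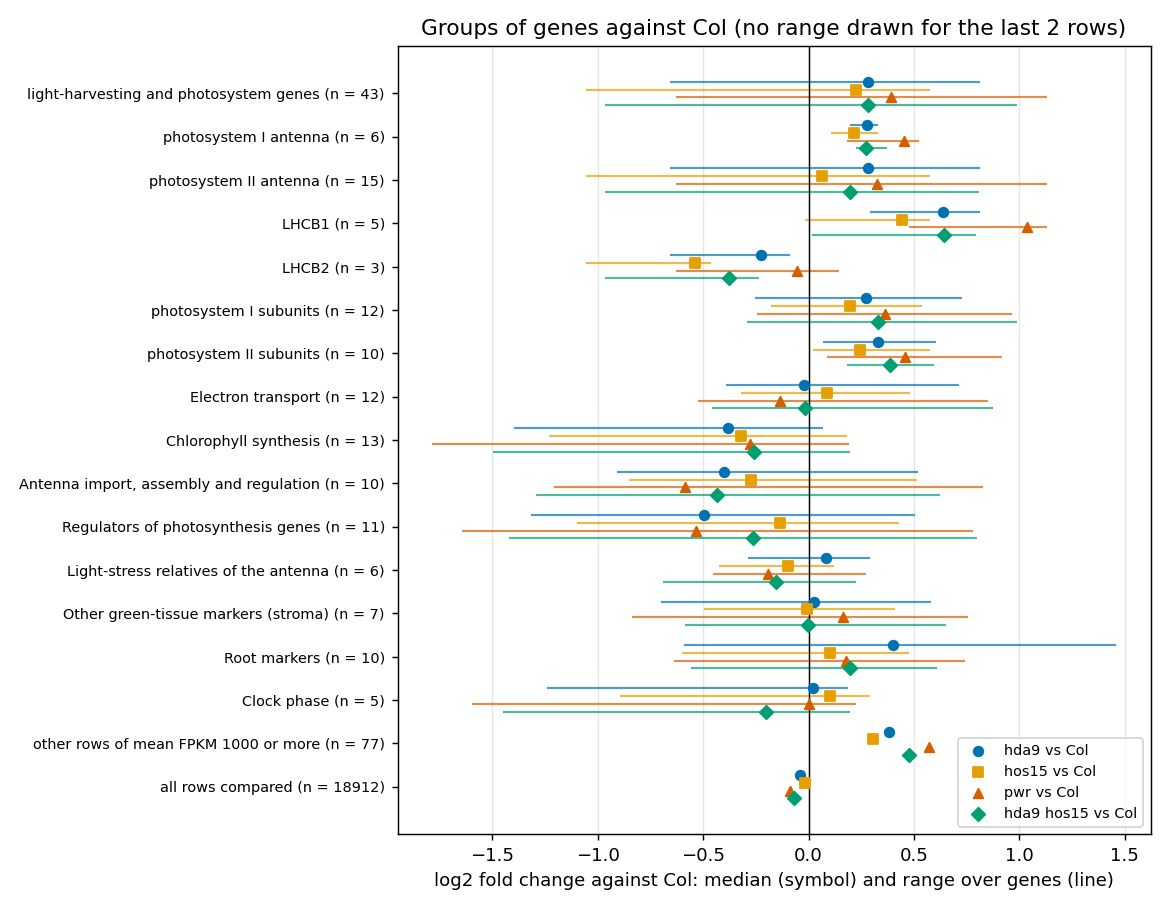
Median log2 fold change against Col (symbols) and range over genes (lines) for the 43 genes, their subgroups, 8 lists of related genes, other abundant rows and all rows compared. As deposited LHCB1 lies to the right of 0 and LHCB2 to its left (0.05 in pwr with median-ratio scaling), and chlorophyll synthesis lies to the left in all 4 mutants.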

How the data were processed

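The labels list mRNA sequencing of 10 seedling libraries, 2 for each of 5 genotypes, made with a stranded kit. The authors deposited 1 table of FPKM with 33297 rows and 1 value per row and genotype, so replicates were pooled by the authors before deposit. The submitters' processing notes name TopHat2, Cufflinks, Cuffdiff and the TAIR10 build, without versions. How those values were scaled between genotypes, and whether counting used the strand, is stated nowhere in the material at hand. FPKM divides by mapped fragments and transcript length, so 1 very abundant transcript can lower all others in its column.

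From these values log2(FPKM + 1) and its differences were computed with Python 3.11.15, pandas 2.3.3 and numpy 2.4.6, over the 18912 rows with at least 1 FPKM in at least 2 genotypes. Tests between libraries were part of the planned design but could not be made on pooled values, so a difference of 2-fold is used as a rule of size and no p-value is given. Read depth, confidence intervals and detection floors cannot be had from FPKM. The script was checked on values with known answers. Transcript length, GC and purine content, shared 50-nt windows, overlaps and coding identity came from the RefSeq annotation of a later release of the genome (TAIR10.1), matched by locus code. The sequence adjustment is the residual of a spline fit (patsy 1.0.2, 5 degrees of freedom a term) of log2 fold change on purine content, purine content in 100-nt windows, length and GC content over 18079 genes.

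Alternatives were a pseudocount of 0.1, no filter or a mean of at least 5 FPKM, median-ratio scaling, quantile normalization, the sequence adjustment, and 1.5-fold or 3-fold as the size called. The rule that takes the 43 genes uses locus codes and no measured value, but the choice to describe this gene set, and the 8 lists set beside it (78 genes, of which 74 passed the filter), were made with earlier results of these data known. Genes named are every one of the 43 and, from each list, at most 3 genes past 2-fold and those with the highest or lowest difference.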

Additional observations from a re-analysis of the deposited data

How the results depend on the processing

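A pseudocount of 0.1, no filter on low values and a filter at a mean of 5 FPKM left all 14 medians and counts of the 43 genes within their tolerance (0.1 on the log2 scale, 1.5 times for a count). Median-ratio scaling gave pwr a median of 0.50 and 8 genes called, all higher, and the double mutant 1, also higher. Quantile normalization turned the medians against Col to -0.060 (pwr), -0.047 (hda9), -0.064 (hos15) and -0.11 (double mutant). It called 0 genes in pwr and 1 in the double mutant, LHCB2.3, lower (-1.23). It set the medians to 0 for the double mutant against hos15, 0 for hda9 against pwr and -0.028 for hos15 against pwr. The sequence adjustment turned the medians to -0.056 (hda9) and -0.047 (hos15) and left 0.049 (pwr) and 0.020 (double mutant). It called 1 gene in pwr, PSAD1, higher (1.22, against 0.74 as deposited), and 1 in the double mutant, LHCB2.3, lower (-1.02). The 3 genes called in pwr as deposited were no longer called, at 0.50 (CAB1), 0.59 (LHB1B1) and 0.34 (LHB1B2). Scaling to equal FPKM sums, added after seeing the data, turned the medians to -0.079 (pwr), -0.032 (hos15) and -0.020 (double mutant) and gave 0.016 in hda9. It called 1 gene in pwr and 1 in the double mutant, in both LHCB2.3, lower (-1.10 and -1.26). Between mutants it gave 0.077 for the double mutant against pwr, 0.036 for hda9 against pwr and -0.014 for hos15 against pwr. At 1.5-fold the counts were 12 in pwr (11 higher and 1 lower), 10 in hda9 (9 and 1) and 12 in the double mutant (11 and 1). At 3-fold they were 0 in pwr and 0 in hos15. No share of all rows was taken at 1.5-fold, at 3-fold or after rescaling of the columns, so these counts have no background beside them. Without the 8 genes that share 50-nt windows with another gene, also an added choice, 0 were called in pwr, since all 3 called there are LHCB1 genes. Apart from that last case the cause of these shifts was not tested. No paired analysis was possible because the table holds 1 value per gene and genotype, and for the same reason no replicate could be left out. Depth is unknown, so no difference here can be set against counting error.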

Other observations

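The highest value of the 43 genes in every genotype was that of CAB1, and the 43 genes together held 14.5% of the FPKM sum in the double mutant, 14.1% in pwr, 14.1% in hda9 and 13.1% in hos15, against 12.9% in Col. The photosystem II antenna summed to 1.55 (pwr), 1.40 (hda9), 1.29 (hos15) and 1.41 (double mutant) times the photosystem II subunits, against 1.27 times in Col. Of that antenna sum LHCB1 held 46716 of 71217 FPKM in pwr and 23265 of 40638 in Col. By median log2 fold change as deposited, the antenna lay below the subunits in every mutant. Its medians were 0.32 (pwr), 0.28 (hda9), 0.06 (hos15) and 0.20 (double mutant), against 0.46, 0.33, 0.24 and 0.38 for the subunits. For photosystem I the ratio of summed antenna to summed subunits was 0.448 (pwr), 0.444 (hda9), 0.451 (hos15) and 0.410 (double mutant), against 0.462 in Col.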
